A study of Mus musculus with 12 samples.

Results

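The chaperone genes described here were the autosomal protein-coding genes whose names begin with Hspa, Hspb, Hspd, Hspe, Hsph, Hsp90 or Dnaj and to which a peak of histone H3 trimethylated at lysine 4 (H3K4me3) had been assigned. The rule found 58 peaks, 1 for each of 58 genes, among 15848 peaks in all and 11286 peaks assigned to autosomal protein-coding genes. The mark was profiled with chromatin immunoprecipitation followed by sequencing in nuclei sorted from mouse ventricles with an antibody to PCM1, a protein around cardiomyocyte (CM) nuclei. The 3 libraries labelled CtrlCre were compared with 3 labelled Cpt1bcKO. CtrlCre mice were αMHC-Cre pos/+ with wild-type Cpt1b, and Cpt1bcKO mice were αMHC-Cre pos/+; Cpt1b fl/fl, so both genotypes carried the Cre transgene, which is driven by the cardiac α-myosin heavy chain promoter. In Cpt1bcKO mice exons 10 to 11 of Cpt1b, which encodes the muscle carnitine palmitoyltransferase needed to import long-chain fatty acids into mitochondria, are flanked by loxP sites and are lost in CMs from embryonic stages. Mice were adult and on a C57BL/6 background, and no treatment is given for these libraries.

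Chaperones hold unfolded proteins and help them to fold. Hsp70 proteins bind exposed stretches of polypeptide in a cycle of ATP hydrolysis, J-domain (DnaJ) proteins bring them their substrates and start that hydrolysis, and Hsp110 proteins exchange the nucleotide. Hsp90 acts on partly folded kinases and receptors, the chaperonin Hsp60 (Hspd1) with its lid Hsp10 (Hspe1) encloses proteins inside mitochondria, and small heat shock proteins hold misfolded proteins without ATP. Several small heat shock proteins are abundant in heart and skeletal muscle, where they bind sarcomere and Z-disc proteins. H3K4me3 marks the start of transcribed genes, so a peak reports the state of a promoter and not the amount of RNA or protein.

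Heat shock factor 1 binds inverted repeats of the triplet GAA. The endoplasmic reticulum (ER) stress factor ATF6 binds the ER stress response element together with NF-Y. Promoter windows of 300 bases, 250 before and 50 after the start in RefSeq on GRCm38.p6, were matched for 45 of the 58 genes. The heat shock element was searched as GAA, any 2 bases and TTC, which reads the same on both strands, and a longer element as the same letters followed by any 2 bases and a further GAA, on either strand. The longer element contains the shorter. At least 1 heat shock element lay in 9 of the 45 windows (20%), against 5.49% of 7651 promoters under peaks of autosomal coding genes and 7.86% of all 32851 windows. The longer element lay in the windows of Hspd1 and Hsph1, which is 4.44% against 0.405% and 0.603%. The first set of upstream sequences is shown because these promoters hold such matches, in capitals. In Hspd1 the run joined 4 units and ended 126 bases before the start. In Hspb1, the gene of the small heat shock protein Hsp27, 2 elements ended 109 and 89 bases before the start, and in Hspa1b, an inducible Hsp70, the element ended 96 bases before it. The Hspd1 bases are chr1:55087933-55088182 on the minus strand, those of Hspb1 chr5:135887669-135887918 on the plus strand and those of Hspa1b chr17:34959239-34959488 on the minus strand. Of Hsph1, an Hsp110 whose match lay after the start, 24 bases are given (chr5:149636287-149636310, minus strand).
Hspd1: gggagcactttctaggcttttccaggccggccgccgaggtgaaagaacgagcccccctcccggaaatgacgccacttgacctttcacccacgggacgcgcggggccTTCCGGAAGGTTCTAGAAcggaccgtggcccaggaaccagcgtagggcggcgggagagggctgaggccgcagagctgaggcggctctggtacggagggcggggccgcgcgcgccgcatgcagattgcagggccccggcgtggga
Hspb1: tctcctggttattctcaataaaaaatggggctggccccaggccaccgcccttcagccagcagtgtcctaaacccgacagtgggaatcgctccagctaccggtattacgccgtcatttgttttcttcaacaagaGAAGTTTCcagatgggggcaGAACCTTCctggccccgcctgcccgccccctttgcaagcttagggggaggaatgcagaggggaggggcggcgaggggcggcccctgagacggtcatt
Hspa1b: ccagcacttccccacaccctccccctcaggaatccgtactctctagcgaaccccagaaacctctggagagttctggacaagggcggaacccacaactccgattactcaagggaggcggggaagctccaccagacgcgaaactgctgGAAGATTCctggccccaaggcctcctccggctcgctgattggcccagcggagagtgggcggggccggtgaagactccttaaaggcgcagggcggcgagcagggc
Hsph1: atgctgcagaTTCTGGAAAGTTCt

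The ER stress response element, searched as CCAAT, any 9 bases and CCACG on either strand, lay in the windows of Hspa5 (BiP), Hsp90b1 (Grp94) and Dnajc3 (p58IPK), all chaperones of the ER lumen. That was 6.67% of the 45 windows, against 0.17% of promoters under autosomal coding peaks and 0.119% of all windows. The letters CCAAT lay in 37.8% of the chaperone windows, against 38.1% of promoters under peaks and 37.4% of all windows. TATAAA lay in 8.89%, between the 6.08% of promoters under peaks and the 13.6% of all windows. CCAAT is contained in the ER element. The second set is shown for these 3 genes, with the element in capitals, and for Hspb7, which held none of these motifs and had the lowest CpG ratio. The bases are chr2:34771840-34772089 (plus strand), chr10:86705445-86705694 (minus), chr14:118937682-118937931 (plus) and chr4:141420529-141420778 (plus).
Hspa5: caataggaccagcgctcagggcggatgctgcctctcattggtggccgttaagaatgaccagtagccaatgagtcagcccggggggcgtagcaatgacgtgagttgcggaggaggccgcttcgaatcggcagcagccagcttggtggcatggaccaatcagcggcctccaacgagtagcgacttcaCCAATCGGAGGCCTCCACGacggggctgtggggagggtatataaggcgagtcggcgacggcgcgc
Hsp90b1: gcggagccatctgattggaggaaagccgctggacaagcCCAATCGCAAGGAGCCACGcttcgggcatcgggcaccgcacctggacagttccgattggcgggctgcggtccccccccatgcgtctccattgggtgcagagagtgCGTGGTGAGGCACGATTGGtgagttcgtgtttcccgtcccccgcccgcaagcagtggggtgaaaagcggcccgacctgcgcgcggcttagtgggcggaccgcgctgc
Dnajc3: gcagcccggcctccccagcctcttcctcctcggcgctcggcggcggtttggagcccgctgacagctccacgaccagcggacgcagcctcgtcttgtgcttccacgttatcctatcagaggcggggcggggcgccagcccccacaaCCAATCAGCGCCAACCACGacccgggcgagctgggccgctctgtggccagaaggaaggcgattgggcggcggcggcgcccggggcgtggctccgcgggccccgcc
Hspb7: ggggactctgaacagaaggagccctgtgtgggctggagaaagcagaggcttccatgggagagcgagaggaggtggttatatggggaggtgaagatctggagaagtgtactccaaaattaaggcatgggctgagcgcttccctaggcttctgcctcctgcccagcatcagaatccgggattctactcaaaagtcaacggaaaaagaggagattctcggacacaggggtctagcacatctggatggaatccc

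**Figure D1:**
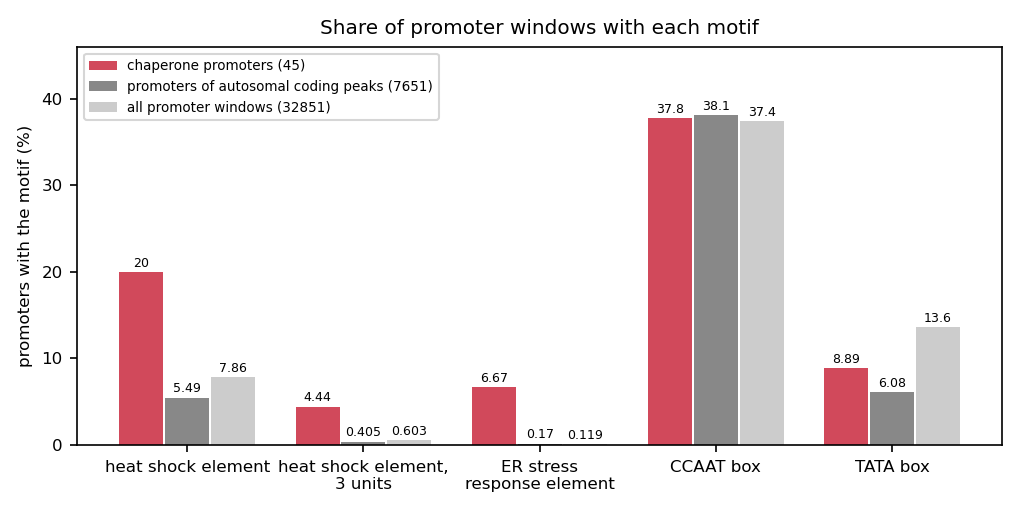
The bars give the percentage of promoter windows of 300 bases that hold each motif, for 45 chaperone genes, 7651 promoters under autosomal coding peaks and 32851 windows in all. Heat shock elements (20% against 5.49%) and ER stress response elements (6.67% against 0.17%) were more frequent among chaperone promoters, whereas CCAAT boxes were not (37.8% against 38.1%).

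The CpG content of the windows also differed among the members. The ratio of observed to expected CpG had a median of 0.829 over the 45 windows and 0.798 over the 7651 promoters under peaks. The small heat shock protein promoters lay low, with 0.284 for Hspb7, 0.446 for Hspb8, 0.474 for Hspb3, 0.53 for Hspb6 and 0.549 for Hspb1. The other 40 windows ranged from 0.538 to 1.15 around a median of 0.848. A match to a motif is a description of the letters and not evidence that a factor was bound.

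The 6 libraries held recovered counts of 763133 to 2766416 in peaks, taken here as reads, and CtrlCre replicate 2 was the shallowest. Counting error for a peak of median level was 8.36% to 15.6% per library. All 10 CM marker genes chosen for the check had a peak, with summed values of 7995 to 9506 in CtrlCre and 6223 to 8933 in Cpt1bcKO libraries. None of 6 leukocyte markers had one, Pdgfra was the only one of 6 fibroblast markers, and Kdr and Flt1 were the only ones of 6 endothelial markers. The 3 mural markers with a peak (Acta2, Cspg4 and Myh11, of 6) summed to 140 to 217 in CtrlCre and 32 to 80 in Cpt1bcKO libraries. In a sorted bulk sample fewer cells of a type and less mark per cell cannot be told apart. The values are scaled to each library, so a change of the mark over the whole genome would not appear in them. Peaks on the Y chromosome (4) were at 0 in replicates 1 and 2 of both genotypes and had values of 49 to 130 in replicate 3 of both. Sex is not among the labels, and the genotypes were balanced for it in this respect. The Cpt1b peak read 428, 407 and 436 in CtrlCre and 572, 689 and 568 in Cpt1bcKO libraries, which describes its promoter and does not check the deletion.

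The chaperone peaks were wide and high. Values are normalised read counts of a peak in a library, and the level is the mean over the 6 libraries. The median width was 2010 bases, against 1639 for the 11059 autosomal coding peaks tested, and the median level was 175 against 125. Per kilobase of peak the medians were 81.7 and 70.8 normalised reads. The study's classes by width, here taken over all tested peaks, put the 25% of widest peaks (over 2222 bases) in a broad class, and 25 of the 58 chaperone peaks (43.1%) were broad against 27.9% of autosomal coding peaks. In all, 8 of 58 exceeded 5000 bases (13.8%), against 3.69% of autosomal coding peaks. These differences in width and level were not tested.

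The widest peaks belonged to genes with different roles. Hsp90ab1, the constitutive cytosolic Hsp90, had a peak of 10797 bases that ran 9377 bases downstream of the start and also took in the start of Slc35b2. Hspb8 and Hspb7, small heat shock proteins of the heart, followed with 7792 and 6566 bases, of which 7305 and 5992 lay downstream of the start. Hspa8, the constitutive Hsc70, spanned 6194 bases and Dnajb5, a J-domain protein that binds class II histone deacetylases, 6169. The peaks of Dnajc9 (6049 bases) and Hspb2 (5646 bases) extended the other way, 5250 and 4027 bases upstream, over the starts of Mrps16 and Cryab. Dnaja4, a cytosolic Hsp40, had 5403 bases that began 126 bases after the assigned start. Among the 54 peaks that held their assigned start, 48 reached farther downstream than upstream, and the median peak extended 666 bases upstream and 1323 bases downstream.

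The highest levels of whole peaks were those of Hspb8 (734), Hspb7 (497) and Hspb2 (484), with 99.8%, 99.2% and 99% of autosomal coding peaks below them. Per kilobase they were less unusual, with 94.2, 75.7 and 85.8 normalised reads. The densest members were instead short peaks of DNAJC genes. Dnajc11, which belongs to the mitochondrial contact site complex, carried 147 normalised reads per kilobase, Dnajc7 144 and Dnajc18 141. The least dense were Dnajc22 (15.6), Dnajc6 (32.9) and Hsp90ab1 (39.3). By whole peak the lowest levels were 27 for Dnajb3, 31.3 for Dnajc22 and 42.5 for Dnajc6, the gene of the neuronal clathrin-uncoating cofactor auxilin. The Dnajc22 peak lay wholly upstream of the start and that of Dnajc7 had its centre 3045 bases from it, so their assignment to these genes rests on proximity. The Dnajc7 peak held no annotated start of that gene, and the annotated start (GENCODE vM21) lay under another peak, named Nkiras2. The level and density given for Dnajc7 therefore do not describe the peak over its start.

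**Figure D2:**
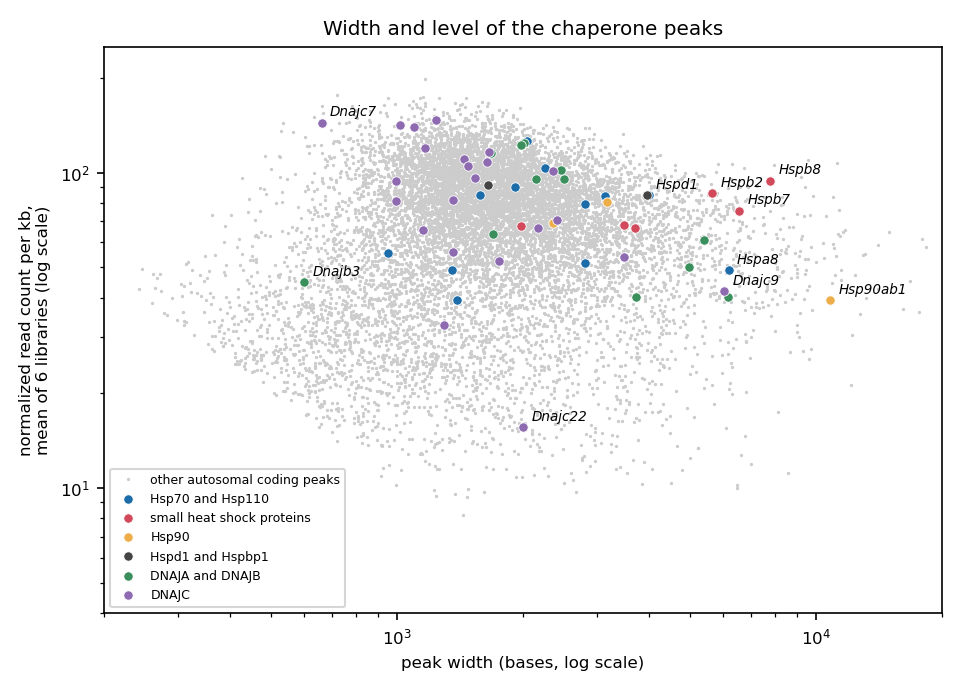
Each point is a peak, with its width in bases on the horizontal log axis and the mean normalised read count per kilobase over 6 libraries on the vertical log axis, in grey for the other autosomal coding peaks and in colour for chaperone classes. Hsp90ab1 (10797 bases), Hspb8 (7792) and Hspb7 (6566) lie at the right, and Dnajc22 (15.6 per kilobase) lies below the rest.

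**Figure D3:**
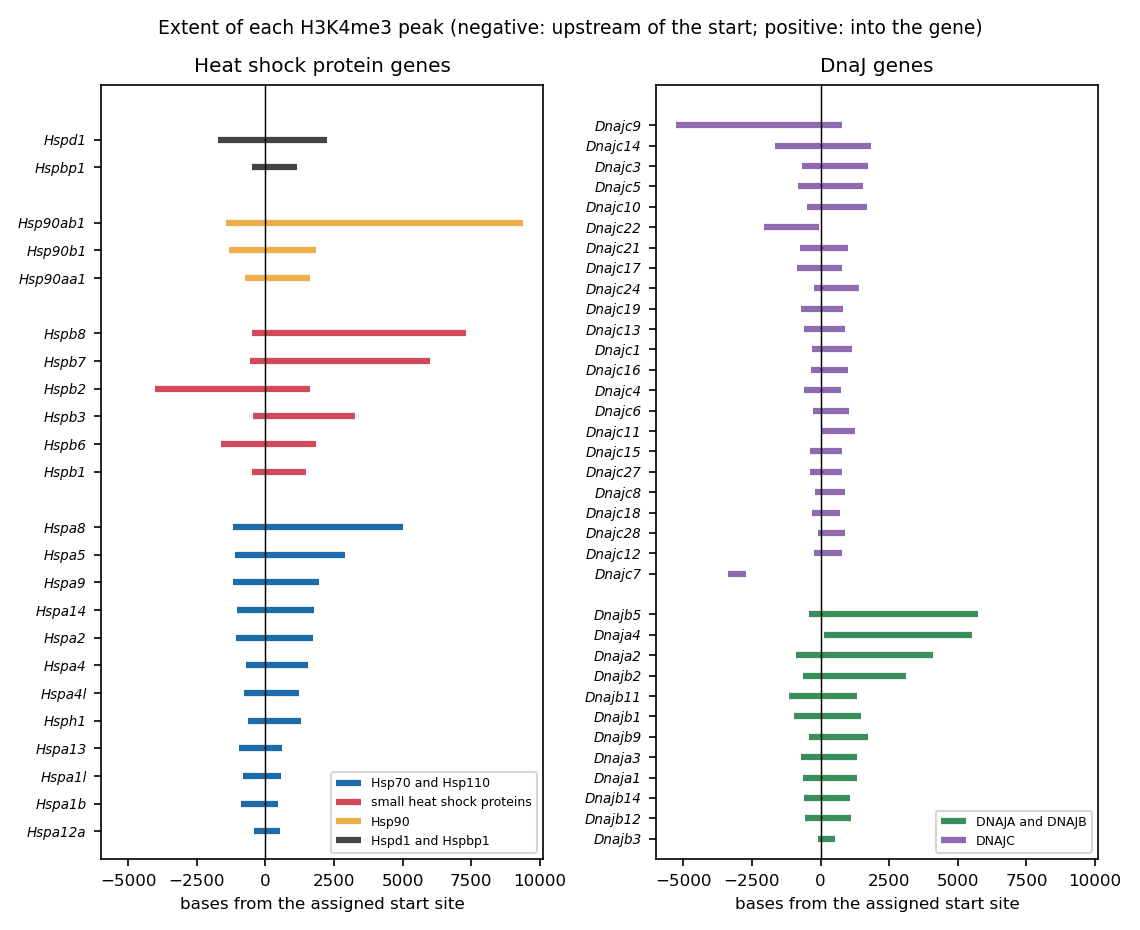
Each bar spans 1 peak in bases from the assigned start site, with negative positions upstream, and bars are grouped by class. The Hsp90ab1 peak runs 9377 bases into the gene, whereas the peaks of Hspb2 and Dnajc9 extend 4027 and 5250 bases upstream.

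Few chaperone peaks differed between genotypes. In a limma fit over all 15039 peaks with a mean of at least 10, Hspd1 was the only 1 of 58 (1.72%) with an adjusted p below 0.05. The shares were 2.93% of all tested peaks and 2.24% of autosomal coding peaks. At an unadjusted p below 0.05, 6 chaperone peaks were higher in Cpt1bcKO CMs and 2 were lower. These were 10.3% and 3.45% of the 58, against a background of 5.84% higher and 6.98% lower over all tested peaks. Of autosomal coding peaks, 6.09% were higher and 5.4% lower. All 58 passed the filter on low values. The median log2 difference, Cpt1bcKO minus CtrlCre, was 0.049 over the 58, 0.019 over autosomal coding peaks and 0.0057 over all tested peaks. The difference was above 0 for 38 of 58 peaks (65.5%), against 51.2% of all tested peaks and 54.8% of autosomal coding peaks. Log2 differences are on the log2(value + 1) scale.

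The measured differences were small, with a range of -0.45 to 0.45 on the log2 scale. For 51 of the 58 peaks the 95% interval lay within a 1.5-fold change in either direction, against 61.7% of all tested peaks. For 57 it lay within a 2-fold change, against 83%. The median SE was 0.11 for the 58 and 0.15 for all tested peaks, so these shares do not show smaller differences at chaperone peaks. The median absolute log2 difference was 0.12 for the 58, 0.12 for autosomal coding peaks and 0.14 for all tested peaks. The genotypes did not overlap for 10 peaks (17.2%), 7 higher and 3 lower, against a background of 16.3% (7.8% higher and 8.46% lower). Among autosomal coding peaks the share was 15.4% (8.48% higher and 6.91% lower). Summed over the 58 peaks, values were 11267, 11264 and 11594 in CtrlCre and 11811, 12211 and 11133 in Cpt1bcKO libraries, and these overlapped.

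**Figure D4:**
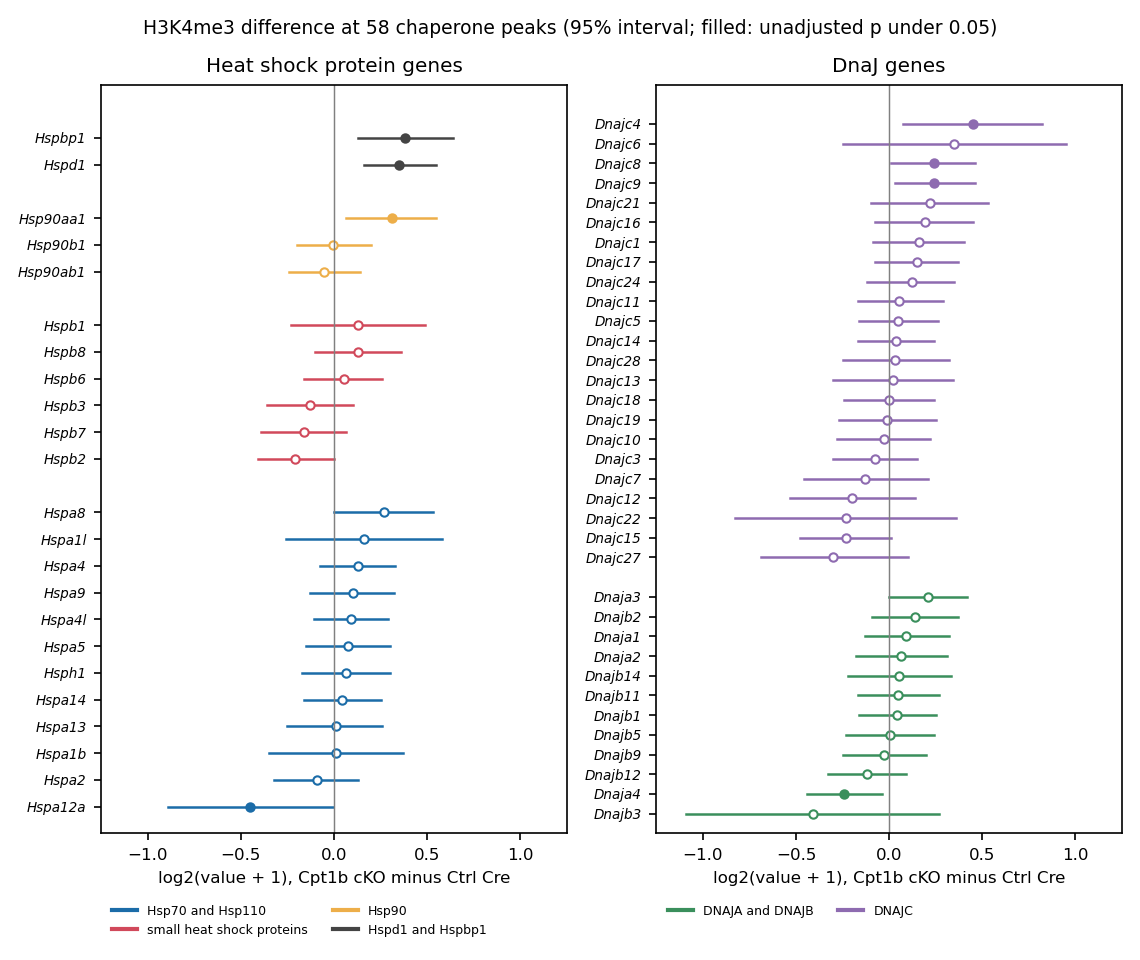
Points give the log2(value + 1) difference, Cpt1bcKO minus CtrlCre, for each of 58 chaperone peaks with its 95% interval from limma, ordered by size within a class, and filled points have an unadjusted p below 0.05. The 6 filled points to the right and 2 to the left lie between -0.45 and 0.45, and only Hspd1 passed adjustment.

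Hspd1, on chromosome 1 at 55085778 to 55089739 (mm10), encodes Hsp60 of the mitochondrial matrix. Its peak was 75.4% intronic and 21.9% exonic and read 294, 281 and 310 in CtrlCre and 392, 383 and 355 in Cpt1bcKO libraries. Every Cpt1bcKO library lay above every CtrlCre library. The means were 295 ± 14.5 and 377 ± 19.3 (SD, n = 3), a ratio of 1.28. On the log2 scale this was 0.35 ± 0.094 (SE), and the limma adjusted p was 0.0409. The call was marginal. The adjusted p was between 0.0532 and 0.214 when any 1 of the 6 libraries was left out (without Cpt1bcKO replicate 1), while the difference stayed between 0.32 and 0.43 under all 14 alternatives. The same peak holds the start of Hspe1, the gene of the Hsp10 lid, which is transcribed in the other direction. The contributions of Hspd1 and Hspe1 to it cannot be told apart. This is the promoter whose upstream sequence, printed above, joins 4 heat shock units.

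Apart from Hspd1, 7 mitochondrial chaperones had a peak of their own name, of which 5 had a difference above 0 and 2 below, with a median of 0.055. Of these, Dnajc4, a J-domain protein of mitochondria, was the only one that had an unadjusted p below 0.05. It read 69, 49 and 76 in CtrlCre and 90, 95 and 77 in Cpt1bcKO libraries. The genotypes did not overlap, but by 1 unit between replicates 3, and without CtrlCre replicate 2 the difference was 0.26 in place of 0.45, with an unadjusted p of 0.123. It was 0.0612 without Cpt1bcKO replicate 1 and 0.084 without Cpt1bcKO replicate 2. Dnaja3 (Tid1), which delivers proteins to mitochondrial Hsp70, read 220, 249 and 226 against 295, 272 and 240, with overlap and an unadjusted p of 0.0506. Hspa9, the mitochondrial Hsp70 mortalin, read 234, 249 and 283 against 282, 303 and 237. Dnajc15 and Dnajc19, J-domain proteins of the inner membrane import motor, had differences of -0.23 and -0.0098. The Dnajc15 values of 145, 167 and 142 lay above 128, 140 and 118 in every library, and this difference did not pass (unadjusted p = 0.0614).

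Of the 3 Hsp90 genes, the stress-inducible Hsp90aa1 had a higher peak. Its values were 155, 126 and 157 in CtrlCre and 162, 182 and 199 in Cpt1bcKO libraries, without overlap. Its log2 difference of 0.31 ± 0.12 (SE) did not pass adjustment (adjusted p = 0.219). It was 0.21 without CtrlCre replicate 2, the lowest and shallowest library, where the unadjusted p was 0.0818, and 0.24 without Cpt1bcKO replicate 3, where it was 0.0878. Hsp90ab1 read 413, 451 and 433 against 423, 413 and 414. Hsp90b1, the Hsp90 of the ER, read 271, 251 and 249 against 256, 275 and 239. The 95% intervals were -0.24 to 0.14 for Hsp90ab1, -0.20 to 0.20 for Hsp90b1 and 0.066 to 0.55 for Hsp90aa1, which overlap. Differences between the 3 genes were not tested.

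Among 12 Hsp70 and Hsp110 genes, 10 had a difference above 0, and none of these passed at an unadjusted p below 0.05. Hspa8 came nearest. Its values were 247, 246 and 331 in CtrlCre and 331, 396 and 267 in Cpt1bcKO libraries, which overlap, and the log2 difference was 0.27 with an unadjusted p of 0.0518. The Hsp110 genes Hspa4, Hspa4l and Hsph1, nucleotide exchange factors for Hsp70, differed by 0.13, 0.089 and 0.063. Hspa5 read 316, 293 and 387 against 353, 382 and 312, a difference of 0.077. Hspa12a, a distant Hsp70 relative, was the only one with an unadjusted p below 0.05. It was lower, with 57, 74 and 52 in CtrlCre and 40, 54 and 39 in Cpt1bcKO libraries. These values overlap and the peak is low, and the adjusted p was 0.377. The call was lost under 8 of 14 alternatives, among them the fits without CtrlCre replicate 1 or 2 (unadjusted p of 0.0657 and 0.197) and without Cpt1bcKO replicate 1 or 3 (0.125 and 0.124).

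Hspa1b and its neighbour Hspa1a are nearly identical, and only uniquely aligned reads were counted, so their values are uncertain. The Hspa1b peak read 67, 63 and 69 in CtrlCre and 58, 73 and 70 in Cpt1bcKO libraries. The start of Hspa1a lay under the peak named Hspa1l, a testis Hsp70, which read 55, 40 and 61 against 60, 57 and 55. Neither peak passed at an unadjusted p below 0.05.

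The 3 highest chaperone peaks belonged to small heat shock proteins, and none of the 6 passed at an unadjusted p below 0.05. Hspb3, Hspb6 and Hspb1 had lower levels of 247, 237 and 133. Of 6, 3 had a difference above 0 and 3 below, with a median of -0.039. Hspb8 read 618, 728 and 758 in CtrlCre and 748, 843 and 710 in Cpt1bcKO libraries. Hspb7, an actin-binding member, read 532, 479 and 560 against 493, 522 and 396. Hspb2 read 495, 542 and 517 against 432, 504 and 415, with 1 overlapping library and a difference of -0.21 (unadjusted p = 0.0508). The Hspb2 peak includes the start of Cryab, the gene of αB-crystallin, which had no peak of its own name, so these 2 cannot be told apart. Hspb1 read 120, 91 and 176 against 120, 165 and 127, with the widest spread of the group in CtrlCre relative to its mean (129 ± 43.2, SD, n = 3). Hspb6, which is phosphorylated in the heart under β-adrenergic drive, read 241, 207 and 251 against 242, 248 and 232. Hspb3, a muscle member, read 280, 253 and 240 against 204, 272 and 234. Summed values of the 6 peaks were 2286, 2300 and 2502 against 2239, 2554 and 2114, in full overlap.

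The J-domain genes formed the largest class, with 4 DNAJA, 8 DNAJB and 23 DNAJC peaks. Their medians were 0.078, 0.023 and 0.036. The peak of Dnaja4, on chromosome 9 at 54698998 to 54704401 and 86.7% intronic, read 356, 370 and 349 in CtrlCre and 331, 303 and 278 in Cpt1bcKO libraries, all lower. The means were 358 ± 10.7 and 304 ± 26.5 (SD, n = 3), and the log2 difference of -0.24 had an adjusted p of 0.258. The values of Dnajc9, a histone chaperone with a J domain, were 243, 246 and 208 against 293, 283 and 250, which do not overlap. Its difference was 0.24, and the start of the mitochondrial ribosomal gene Mrps16 lies under the same peak. Dnajc8, a protein of the spliceosome, read 142, 146 and 132 against 176, 164 and 156, without overlap and with the same difference of 0.24. With 1 library left out, the unadjusted p of Dnaja4 stayed below 0.05 in 5 of 6 fits and was 0.0964 without Cpt1bcKO replicate 3. That of Dnajc9 did so in 3 of 6 and was 0.142 without CtrlCre replicate 3, 0.116 without Cpt1bcKO replicate 1 and 0.0693 without Cpt1bcKO replicate 2. That of Dnajc8 did so in 2 of 6, the fits without CtrlCre replicate 2 and without Cpt1bcKO replicate 3, and reached 0.148 in the others.

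Most DNAJ peaks moved little. Dnajb1, the heat-inducible Hsp40, read 234, 249 and 258 in CtrlCre and 239, 280 and 246 in Cpt1bcKO libraries. Dnaja1, a cytosolic Hsp40, read 258, 202 and 240 against 265, 222 and 257. Dnajb5 read 252, 219 and 273 against 261, 275 and 211, a difference of 0.0025. The 3 lowest peaks had wide intervals. Dnajb3 read 26, 40 and 26 against 23, 15 and 32, with an interval of -1.09 to 0.27, and Dnajc6 and Dnajc22 had intervals of -0.25 to 0.95 and -0.83 to 0.36. At these levels a 1.5-fold difference could not have been excluded.

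Outside the folds above, Hspbp1, a nucleotide exchange factor that carries the prefix without being a heat shock protein, had the second lowest p. It read 149, 116 and 126 in CtrlCre and 173, 149 and 189 in Cpt1bcKO libraries. Replicate 2 of Cpt1bcKO equalled replicate 1 of CtrlCre, so the groups touched. It differed by 0.38 ± 0.12 (SE) on the log2 scale (adjusted p = 0.111), and the unadjusted p stayed below 0.05 in all 6 fits that left out 1 library. It was 0.0936 without replicate 3 of both genotypes.

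**Figure D5:**
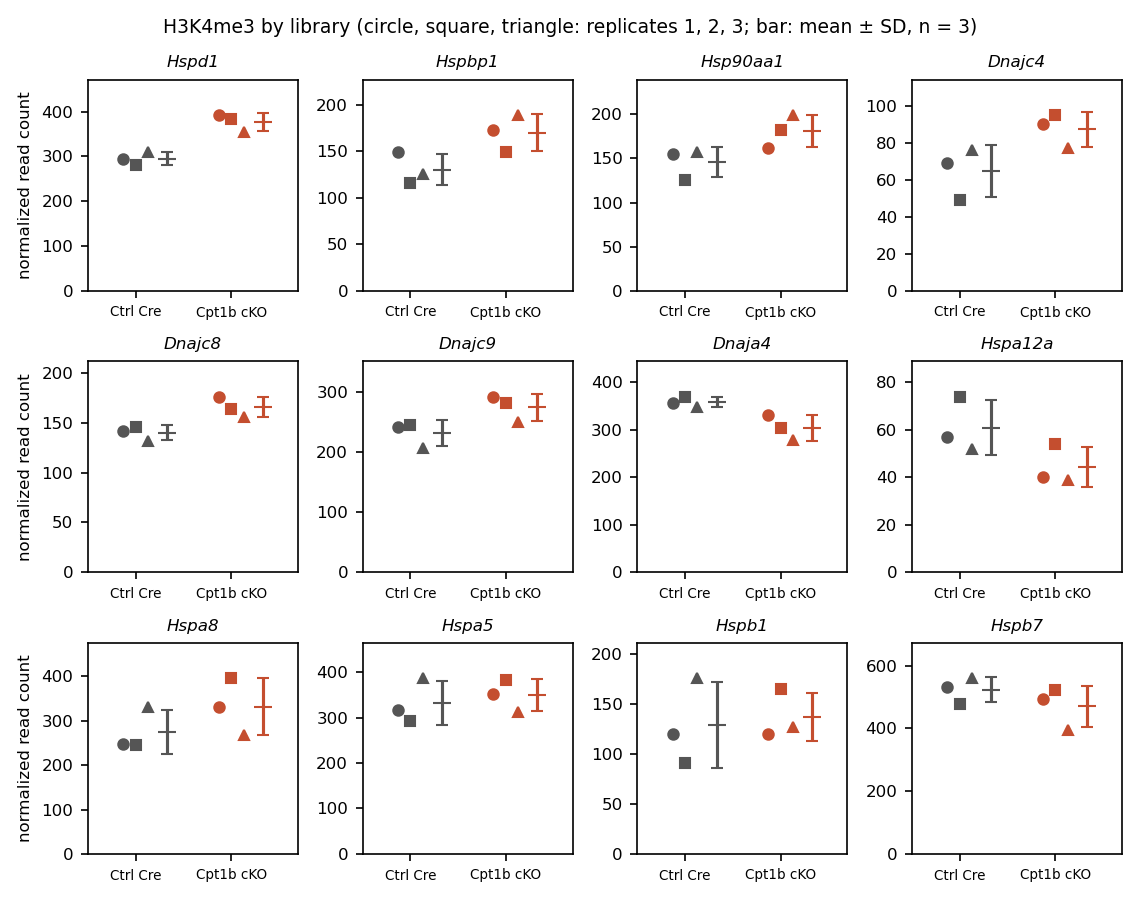
Normalised read counts per library (vertical axes from 0) for 12 chaperone peaks, with circles, squares and triangles for replicates 1, 2 and 3 and bars for the mean ± SD (n = 3). Hspd1 (281 to 310 against 355 to 392) and Dnaja4 (349 to 370 against 278 to 331) do not overlap, whereas in Hspa8, Hspa5, Hspb1 and Hspb7 replicate 3 was the highest CtrlCre library.

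Of 14 genes listed as ER chaperones with a peak, 7 had a difference above 0 and 7 below. The median was 0.0038 and none passed at an unadjusted p below 0.05. The list includes Dnajc22 (difference of -0.23), whose peak lay wholly upstream of its start and was assigned by proximity. Hspa5, Hsp90b1 and Dnajc3, whose promoters hold the ER stress response element, differed by 0.077, -0.0032 and -0.075. Dnajb9 (ERdj4), another target of the unfolded protein response, read 217, 193 and 209 in CtrlCre and 180, 234 and 196 in Cpt1bcKO libraries. The 9 genes with a heat shock element had a median difference of 0.063 and the 36 without one 0.047. At an unadjusted p below 0.05, 1 of the 9 was higher, and of the 36, 4 were higher and 2 lower. Over all tested peaks the shares were 5.84% higher and 6.98% lower. A difference between the groups with and without the element was not tested.

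Replicate 3, the libraries with Y-linked reads, stood apart at several Hsp70 and small heat shock protein peaks. At Hspa8 the log2 difference was 0.55 over replicates 1 and 2 and -0.31 in replicate 3. At Hspa5 it was 0.27 and -0.31, at Hspa9 0.28 and -0.25, and at Hspb1 0.43 and -0.47. Hspb7, Dnajb5 and Dnajc19 also differed more negatively in replicate 3, with -0.50, -0.37 and -0.39 against 0.0071, 0.19 and 0.18. A fit with an interaction of genotype and Y-linked reads gave 7 of 58 an unadjusted p below 0.05, against a background of 5.42%, and none passed adjustment (adjusted p = 0.859 for each), as for all but 0.00665% of tested peaks. This fit was chosen after the values were seen. With 1 such library per genotype, the presence of Y-linked reads and any other property of these libraries cannot be told apart. The summed CM marker values moved the same way, with 9506 in CtrlCre replicate 3 and 6223 in Cpt1bcKO replicate 3, the highest and the lowest of the 6 libraries, and their part in these values was not tested. Leaving out replicate 3 had to raise the difference at the peaks named above for going the other way in that replicate. Their p-values without it are therefore not separate support. Without replicate 3 of both genotypes, Hspa8 (unadjusted p = 0.000652), Hspa5 (0.0278), Hspa9 (0.028) and Hspb1 (0.0479) were among 9 chaperone peaks that were higher, against 5.35% of all tested peaks. None of the 58 was lower, against 5.62%. The unadjusted p was then 0.0894 for Dnaja4, 0.0648 for Hsp90aa1, 0.0846 for Dnajc8 and 0.0917 for Hspa12a. No chaperone peak passed adjustment in that fit.

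The mouse annotation (GENCODE vM21) holds 74 autosomal coding genes of these names, and 16 had no peak under their own name. For 7 of them no peak covered a start: Dnajb13, Dnajb7, Dnajb8, Dnajc5b, Dnajc5g, Hspa12b and Hspb9. The other 9 started under a peak that carries another name or none. Dnajb4, a cytosolic Hsp40 of muscle, started under an unassigned peak of 6422 bases that read 487, 456 and 600 in CtrlCre and 479, 633 and 522 in Cpt1bcKO libraries. Dnajb6, a suppressor of protein aggregation linked to muscle disease, lay under a peak named Gm5129 that read 301, 298 and 314 against 287, 304 and 250. None of these peaks but that of Hspe1 had an unadjusted p below 0.05. Conversely, 11 of the 58 chaperone peaks also held the start of another coding gene.

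Partner genes of the same pathways were taken from lists of cochaperones, heat shock factors, chaperonins and proteases. Of 77 listed, 63 had a tested peak, with 39 above 0, 24 below and a median of 0.05. At an unadjusted p below 0.05, 8 were higher and 1 was lower, against the same background of 5.84% and 6.98%, and 2 (3.17%) had an adjusted p below 0.05, against 2.93% of all tested peaks. Grpel2, a nucleotide exchange factor for mitochondrial Hsp70, read 196, 223 and 231 in CtrlCre and 291, 285 and 288 in Cpt1bcKO libraries, with no overlap and an adjusted p of 0.0187. That p was 0.152 without CtrlCre replicate 1 and 0.0567, 0.0734 and 0.094 without Cpt1bcKO replicate 2, 3 or 1, and 0.128 without replicate 3 of both genotypes. Bag2, a nucleotide exchange factor for cytosolic Hsp70, read 109, 105 and 125 against 149, 138 and 193, with an adjusted p of 0.0439. That p reached 0.313 without Cpt1bcKO replicate 3 and was 0.166, 0.0887 and 0.0973 without CtrlCre replicate 1 or 2 or Cpt1bcKO replicate 1. It was also lost with quantile normalization (0.0676), with limma-voom (0.0693) and without replicate 3 of both genotypes (0.28). Hsf1, the heat shock factor itself, read 207, 174 and 208 against 233, 242 and 219 (adjusted p = 0.31). Unc45a, an Hsp90 cochaperone, was the only partner with a lower value at an unadjusted p below 0.05, with 164, 191 and 151 against 127, 132 and 139. The peak of Unc45b, which was also listed, read 238, 260 and 248 against 257, 251 and 229, a log2 difference of -0.018. Of 10 mitochondrial partners 8 had a difference above 0, with a median of 0.11. The 16 ER chaperones and stress sensors had a median of -0.019 and none passed at an unadjusted p below 0.05.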

How the data were processed

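H3K4me3 ChIP-seq libraries, 3 CtrlCre and 3 Cpt1bcKO, were analysed; the 6 input libraries have no column of their own. Per the study's methods and the submitters' processing notes, 75-base single-end reads were checked with FastQC 0.11.8, trimmed with Trimmomatic 0.39, aligned to mm10 with STAR 2.6.1d (unique, unspliced) and deduplicated with Picard 2.21.7. Peaks were called against input with MUSIC (FDR 0.2), merged over libraries and assigned to the nearest GENCODE vM15 start within 5000 bases. The authors took counts per merged peak from bigWigAverageOverBed, divided them by DESeq2 1.26.0 size factors and rounded them. The deposited library values are therefore scores and not counts. The deposited genotype means (signal) are unrounded, and together with the scores they gave back whole numbers for all 15848 peaks in both genotypes. These numbers were taken as reads, which was not checked, and the counting errors rest on that. The deposited fraction of a peak in the gene body and the distance to the start were read as positions. The authors' fold changes and p-values were not used.

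Peaks with a mean below 10 were left out (809), and log2(score + 1) of the remaining 15039 was fitted with limma 3.58.1 (R 4.3.3) on genotype, with Benjamini-Hochberg adjustment over all of them. The study's methods use an unadjusted threshold of 0.05, so both are given. On simulated data for this comparison with 15039 peaks, 26% of 1.5-fold and 90% of 2-fold changes were recovered. The simulated dispersion was set by hand and not estimated from these libraries, so these shares are not a measure of power here. Named peaks were those with an unadjusted p below 0.05, 21 with a peak among 25 listed chaperones, and the extremes of level and width. Members, roles, partner lists and markers were chosen with earlier results of these data known. Nothing in the labels says whether replicates were separate animals, so p-values measure the spread between these libraries. Intervals cover that spread, and counting errors cover counting only. Floors of 3 counts corresponded to 1.95 to 6.97 normalised reads, below every value reported for a chaperone peak. Promoter windows and starts came from RefSeq (GRCm38.p6) and GENCODE vM21.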

Additional observations from a re-analysis of the deposited data

How the results depend on the processing

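The median difference of the 58 chaperone peaks stayed positive under every alternative. It was 0.022 to 0.075 with 1 library left out and 0.035 with quantile normalization or with limma-voom on recovered counts. Without the libraries with Y-linked reads it was 0.089. These fits share most of their libraries. Medians over other peaks under them are not given, so a shift particular to chaperone peaks is not shown. Counts at an unadjusted p below 0.05 were less stable. With 1 library left out, 3 to 8 chaperone peaks were higher (3 without Cpt1bcKO replicate 1 or 2) and 0 to 5 lower (5 without Cpt1bcKO replicate 2, 0 without Cpt1bcKO replicate 3). With a mean of at least 50, 1 was lower, and without the Y-linked libraries 0. The count of 1 at an adjusted p below 0.05 (Hspd1) was 0 in each fit that left out 1 library (0 to 0), 0 with Y-linked reads as a covariate and 0 without the libraries with them; both of these fits were chosen after seeing the data. Over all tested peaks, 441 calls became 229 to 431 with 1 library left out (229 without CtrlCre replicate 1, 288 and 246 without Cpt1bcKO replicates 2 and 3) and 82 without the Y-linked libraries, where 2 libraries per genotype remained. Partner peaks numbered 5 to 9 in place of 9, with 5 without CtrlCre replicate 2 or Cpt1bcKO replicate 1. The share of promoters with a heat shock element was 4.44% when 3 contiguous units were required. The causes of these changes were not tested. Leaving out a library lowers the number of samples and also removes that library's own properties, which cannot be told apart here.

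Deviations of same-numbered libraries from their genotype means correlated at 0.0759, -0.0812 and 0.105. Differently numbered libraries correlated at -0.162 to 0.114. These values show no pairing by replicate number, but with 3 libraries per genotype they cannot exclude one. Y-linked reads were in replicate 3 of both genotypes, and the study used littermates as controls. With replicate number as a block, 0 chaperone peaks passed adjustment (Hspd1, adjusted p = 0.102), 370 peaks of all tested did, and the unadjusted p of Dnajc8 was 0.0533; no other count moved by more than 1.5 times and no other named chaperone peak changed its side of 0.05.

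Of 31 named peaks, 18 kept their sign under every alternative and 13 did not, none of which had an unadjusted p below 0.05 in the reported fit. Of their 431 values under alternatives, 355 kept direction and side of an unadjusted p of 0.05, 28 rose above it, 21 fell below it and 27 changed sign. Without the Y-linked libraries the difference was 0.0041 for Dnajb9, 0.18 for Dnajc19, 0.025 for Hsp90b1, 0.0071 for Hspb7 and -0.016 for Hsph1. For Dnajb5 it was -0.015 with quantile normalization and -0.037 with limma-voom. With 1 library left out the range was -0.009 to 0.17 for Dnaja1, -0.025 to 0.088 for Dnajb1, -0.084 to 0.12 for Dnajb5, -0.13 to 0.055 for Dnajb9, -0.094 to 0.11 for Dnajc19, -0.12 to 0.013 for Dnajc3, -0.054 to 0.047 for Hsp90b1, -0.056 to 0.11 for Hspa1b, -0.0079 to 0.19 for Hspa5, -0.10 to 0.38 for Hspb1, -0.032 to 0.11 for Hspb6 and -0.017 to 0.18 for Hsph1. Each chaperone gene had a single peak, so taking the highest peak per gene changed nothing. In the simulation a 1.5-fold change was recovered in 26% of cases. Its dispersion was set by hand, so this share does not measure power in these libraries. The absence of a call does not show the absence of a difference.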
